A study of Homo sapiens with 15 samples.

Results

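The genes described here are 35 human genes of endoplasmic reticulum stress and protein folding. They were listed by name, with earlier results of these data known. Every name matched 1 row of the deposited tables, so 35 of 57773 listed genes were followed. Of these, 34 had enough reads for the test across all genes. DERL3, which encodes a membrane protein of degradation in the endoplasmic reticulum, had 0 exon reads in all 15 libraries. A count of 0 allows a level of up to 0.112 to 0.560 CPM (exon reads per 1 M exon reads of the library), depending on the depth of the library, and covers counting error only.

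Secreted and membrane proteins fold in the endoplasmic reticulum with the help of chaperones, lectins and enzymes that form disulfide bonds. When unfolded protein builds up, the sensors IRE1 (encoded by ERN1), PERK (EIF2AK3) and ATF6 start the unfolded protein response. IRE1 splices the XBP1 messenger, PERK phosphorylates eIF2alpha and so raises translation of ATF4, and ATF6 is cut in the Golgi to release a transcription factor. Hepatocytes secrete most plasma proteins, and HepG2, an established line from a human liver cancer, keeps much of that secretory work.

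HepG2 cells were exposed for 72 h to TCEP (tris(2-chloroethyl) phosphate) at 250 or 25 µM, to TCIPP (tris(2-chloroisopropyl) phosphate) at 25 or 2.5 µM, or to 0.1% DMSO as the solvent control. These flame retardants are chlorinated phosphate esters of like build, except that every chloroalkyl chain of TCIPP bears an extra methyl. There were 3 libraries per group, and the labels name a seeding, a treatment and an RNA extraction of its own for each triplicate. All 5 groups are the same line, in medium with serum and at fewer than 25 passages. The labels do not state how much DMSO the treated cultures received.

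Total exon reads ran from 5.35 M to 26.8 M per library. The 35 genes together took 1.255%, 1.26%, 1.267% and 1.241% of the exon reads on average with TCEP at 250 µM, TCEP at 25 µM, TCIPP at 25 µM and TCIPP at 2.5 µM, against 1.193% with DMSO. TCIPP 25 µM replicate 3 stood apart from its group at 1.188%, within the DMSO range of 1.179% to 1.201%, while the other 11 treated libraries lay above it. Each share is weighted towards the genes with the most reads. The chaperones and cochaperones summed on average to 6441, 6716, 6445 and 6352 CPM in the same order, against 6018 CPM with DMSO. The sensors and transcription factors summed to 648, 582, 661 and 594 CPM, against 616 CPM. All 14 hepatocyte markers looked up were read in every group, at a summed 52671 to 61189.8 CPM in treated libraries and 56734 to 63905 CPM with DMSO. The 5 leukocyte markers summed to at most 3.18 CPM and the 3 endothelial markers analysed to at most 2.65 CPM. Of 5 fibroblast and stellate markers COL1A2, DCN and LUM had no read, and the 5 summed to 12.7 to 34.2 CPM in treated libraries and 19.6 to 24.6 CPM with DMSO. The 3 cholangiocyte markers, with CFTR at 0, summed to 186 to 245 CPM in treated libraries and 217 to 239 CPM with DMSO. Only 1 of the 3 averaged above 1 CPM in each group. KRT7 also had no read with TCEP or TCIPP at 25 µM, where the sum was SOX9 alone. Because these are bulk samples, fewer cells with a transcript and less of it per cell cannot be told apart. Within the treated groups, libraries with the same replicate number deviated together, with r across genes of 0.177 to 0.297 in the 3 comparisons between treated groups. Another fit that holds the replicate number constant, called the replicate block here, is therefore given beside those comparisons. The numbers did not pair DMSO with treated libraries by the same criterion.

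The chaperone genes of this group are the textbook case of shared promoter elements, which is why the sequences before their start sites are shown. The endoplasmic reticulum stress element (ERSE), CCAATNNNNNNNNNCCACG, and the shorter ERSE-II, in which 1 base of any kind lies between ATTGG and CCACG, are bound by NF-Y together with ATF6 or XBP1. Windows of 300 bases, from 250 before to 50 after the start, were taken from the RefSeq promoter table (GRCh38.p14) and were present for 31 of the 35 genes. ERSE stood on either strand in 8 of the 31 genes (25.8%), against 0.0916% of all 27305 genes in the table. Those were HSPA5, HSP90B1, CALR, CANX, PDIA6, XBP1, CRELD2 and ERO1LB. Chaperone genes are the textbook case of this element, so the excess was known beforehand and is no result of these data. ERSE-II was found in 3 genes, SDF2L1, HERPUD1 and HYOU1, and in 0.0696% of all genes. This element was added after the first search. The CCACG part alone stood in 24 of the 31 genes and in 42.1% of all genes, and it is contained in every ERSE and ERSE-II. The element TGACGTGG was found in HYOU1 alone, where it overlaps an ERSE-II (0.927% of all genes), TGATGNAAN in HERPUD1 and CREB3L2 (4.45%), and TGACGTCA in CREB3L2 and PPP1R15A (2.25%). A match is a run of letters and not a measured binding site. The 250 bases before the start are shown for 7 genes picked from those named in the results. They read as follows, 5′ to 3′ on the gene's own strand, with ERSE and ERSE-II in capitals on whichever strand the element matches.
HSPA5 (chr9:125241344-125241593, minus strand): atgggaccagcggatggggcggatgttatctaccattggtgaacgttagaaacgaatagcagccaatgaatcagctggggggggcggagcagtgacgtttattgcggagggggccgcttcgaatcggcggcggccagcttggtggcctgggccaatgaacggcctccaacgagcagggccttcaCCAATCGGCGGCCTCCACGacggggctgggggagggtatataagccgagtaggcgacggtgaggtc
HSP90B1 (chr12:103930160-103930409, plus strand): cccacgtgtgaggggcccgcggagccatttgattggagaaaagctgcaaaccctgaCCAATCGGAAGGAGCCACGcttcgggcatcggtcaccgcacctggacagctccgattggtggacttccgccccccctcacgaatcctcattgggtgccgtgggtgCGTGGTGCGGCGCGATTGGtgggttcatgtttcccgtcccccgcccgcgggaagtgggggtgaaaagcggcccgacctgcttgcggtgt
XBP1 (chr22:28800570-28800819, minus strand): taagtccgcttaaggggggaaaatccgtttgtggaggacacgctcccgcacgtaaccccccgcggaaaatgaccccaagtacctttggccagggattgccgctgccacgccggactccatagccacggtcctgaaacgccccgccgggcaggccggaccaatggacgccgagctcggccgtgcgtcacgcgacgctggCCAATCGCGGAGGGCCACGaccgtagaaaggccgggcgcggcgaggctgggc
CRELD2 (chr22:49918384-49918633, plus strand): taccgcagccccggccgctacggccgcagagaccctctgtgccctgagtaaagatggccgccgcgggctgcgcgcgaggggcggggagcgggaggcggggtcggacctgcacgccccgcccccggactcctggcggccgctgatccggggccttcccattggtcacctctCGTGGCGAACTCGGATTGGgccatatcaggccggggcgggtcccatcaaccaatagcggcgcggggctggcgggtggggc
HYOU1 (chr11:119057206-119057455, minus strand): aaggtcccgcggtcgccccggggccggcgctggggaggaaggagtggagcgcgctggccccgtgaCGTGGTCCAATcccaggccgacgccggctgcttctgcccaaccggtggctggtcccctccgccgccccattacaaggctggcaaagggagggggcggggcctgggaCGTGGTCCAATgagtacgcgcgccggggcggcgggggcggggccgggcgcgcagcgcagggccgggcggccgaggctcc
HERPUD1 (chr16:56931892-56932141, plus strand): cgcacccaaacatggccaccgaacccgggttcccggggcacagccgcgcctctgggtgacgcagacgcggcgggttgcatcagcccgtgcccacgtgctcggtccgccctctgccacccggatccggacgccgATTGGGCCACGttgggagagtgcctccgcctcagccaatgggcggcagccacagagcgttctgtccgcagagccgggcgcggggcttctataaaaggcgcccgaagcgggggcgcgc
QSOX1 (chr1:180154619-180154868, plus strand): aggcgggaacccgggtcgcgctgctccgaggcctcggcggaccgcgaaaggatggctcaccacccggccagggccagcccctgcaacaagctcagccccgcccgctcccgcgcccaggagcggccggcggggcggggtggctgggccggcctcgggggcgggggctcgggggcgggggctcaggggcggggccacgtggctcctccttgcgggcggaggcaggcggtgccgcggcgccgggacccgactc

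HSP90B1 and HYOU1 each carry the element at 2 places. QSOX1 has no exact ERSE or ERSE-II in its window and is shown for contrast, since it was the 1 gene called against DMSO. Other genes of the results without an exact element, among them ERN1, CREB3L3, SYVN1 and WFS1, are not shown.

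With DMSO alone, the levels of these genes per kilobase of exon ran from 0 to among the highest of the cell. On the deposited RPKM scale, HSP90B1 (the chaperone GRP94) stood highest at 393 ± 15.2 RPKM (SD, n = 3), followed by HSPA5 (the chaperone BiP) at 353 ± 23.3 RPKM. P4HB, a protein disulfide isomerase, had 315 ± 5.62 RPKM, and CALR, the lectin chaperone calreticulin, had 299.6 ± 26.7 RPKM, with overlapping ranges, while HSP90B1 and HSPA5 each stood clear of the next gene. PDIA3, PDIA6, CANX and PDIA4 came next, at 212 ± 9.83, 206 ± 8.96, 153 ± 1.98 and 151 ± 5.22 RPKM. PDIA3 did not stand apart from PDIA6, nor CANX from PDIA4, beyond the spread of the DMSO libraries. XBP1 was the highest regulator at 88.7 ± 2.30 RPKM, clear of PDIA4 above it and of HERPUD1 below it. The sensors were far lower, with 9.42 ± 0.356 RPKM for EIF2AK3, 9.22 ± 0.417 RPKM for ATF6 and 2.31 ± 0.291 RPKM for ERN1. ERO1LB, an oxidase that recharges protein disulfide isomerases, was the lowest gene with reads at 0.832 ± 0.127 RPKM. Of the genes tested, 99.5% had a lower RPKM than HSP90B1, 91.9% a lower one than HERPUD1 and 32.5% a lower one than ERN1. Only 34.9% of DERL1 reads and 56.0% of EIF2AK3 reads were unique to 1 place, so both levels are uncertain.

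**Figure D1:**
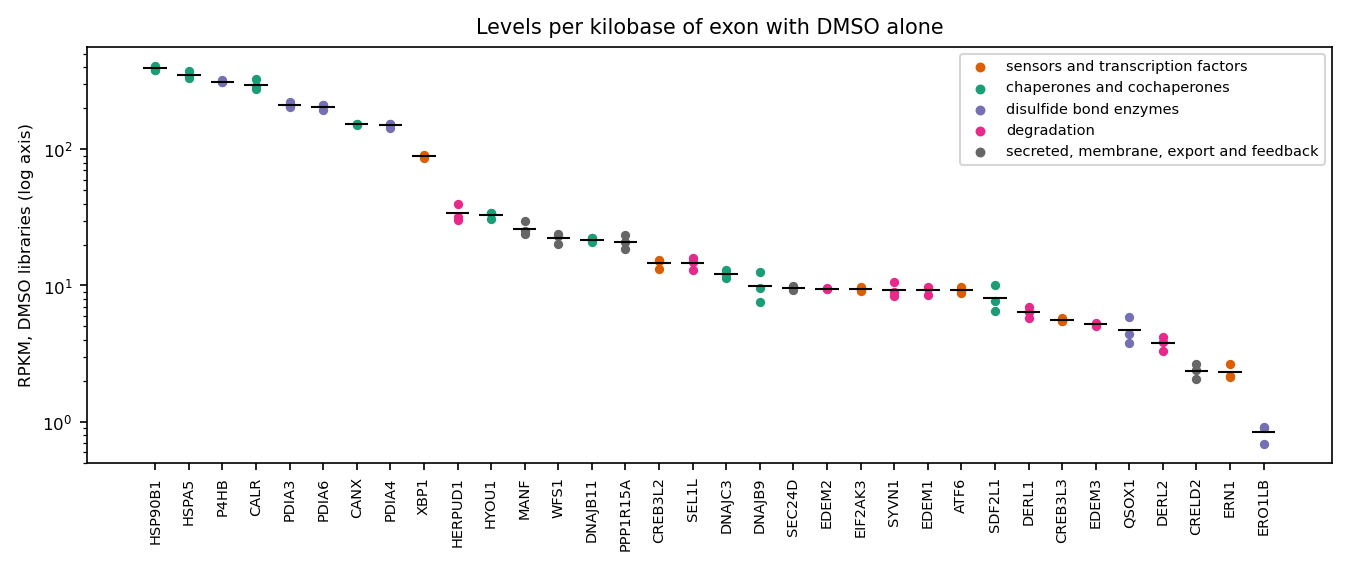
Levels of the 34 genes with reads in the 3 DMSO libraries, in RPKM on a log axis, ordered by mean and coloured by role; points are libraries and bars are means. The chaperones and disulfide isomerases fill the top of the order, from HSP90B1 at 393 RPKM, and the sensor ERN1 lies near the bottom at 2.31 RPKM.

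Against DMSO, QSOX1 rose with TCIPP at 2.5 µM, and none of the other 33 tested genes passed with any treatment. Calls were made in edgeR's quasi-likelihood test with adjusted p-values below 0.05. With TCEP at 250 µM 0 of 34 genes were called, against 0% of 12567 genes tested, and with TCEP at 25 µM 0 of 34, against 0%. With TCIPP at 25 µM 0 of 34 were called, against 0.00796% of all genes, and with TCIPP at 2.5 µM 1 of 34, against 0.0955%. At an unadjusted p under 0.05 the counts were 6, 10, 13 and 8 of 34 in that order, against 5.2%, 15.2%, 6.36% and 13.9% of all genes. DESeq2 called 0, 3, 2 and 3 of the 34, against 0.111%, 1.15%, 0.255% and 1.81% of all genes. The counts by limma-voom were 0, 0, 0 and 2, against 0%, 0.0318%, 0.00796% and 0.828%. DESeq2 named ERN1 with TCEP at 25 µM and with both concentrations of TCIPP. The median half-width of the 95% intervals was 0.204 on the log2 scale.

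Positive values outnumbered negative ones in all 4 comparisons. The median log2 fold change of the 34 genes was 0.096 with TCEP at 250 µM, where 27 were above 0, and 0.054 with TCEP at 25 µM, where 20 were. It was 0.094 with TCIPP at 25 µM (27 above 0) and 0.038 with TCIPP at 2.5 µM (25 above 0). The medians of all genes tested lay between -0.004 and 0.0017, which the scaling of the libraries sets near 0. Of the 12567 genes tested, 6354, 6294, 6187 and 6146 were above 0 in the same order. These 4 comparisons share the same DMSO libraries, so they are not independent of each other. The groups did not overlap in 9 of the 34 genes (26.5%) with TCEP at 250 µM, against 11.2% of all genes, and in 11 (32.4%) with TCEP at 25 µM, against 22.6%. With TCIPP they did not overlap in 7 genes (20.6%) at 25 µM, against 9.2%, and in 8 (23.5%) at 2.5 µM, against 16.8%. In ERN1 and CREB3L3, all 12 treated libraries lay beyond all 3 DMSO libraries, which was true of 0.82% of all genes tested. Genes with an ERSE or ERSE-II had a median of 0.088 over 11 genes against 0.20 over 20 genes without, for TCIPP at 25 µM, and of 0.10 against 0.11 for TCEP at 250 µM. At the lower concentrations the medians with and without the element were 0.065 and 0.056 for TCEP at 25 µM and 0.052 and 0.048 for TCIPP at 2.5 µM.

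**Figure D2:**
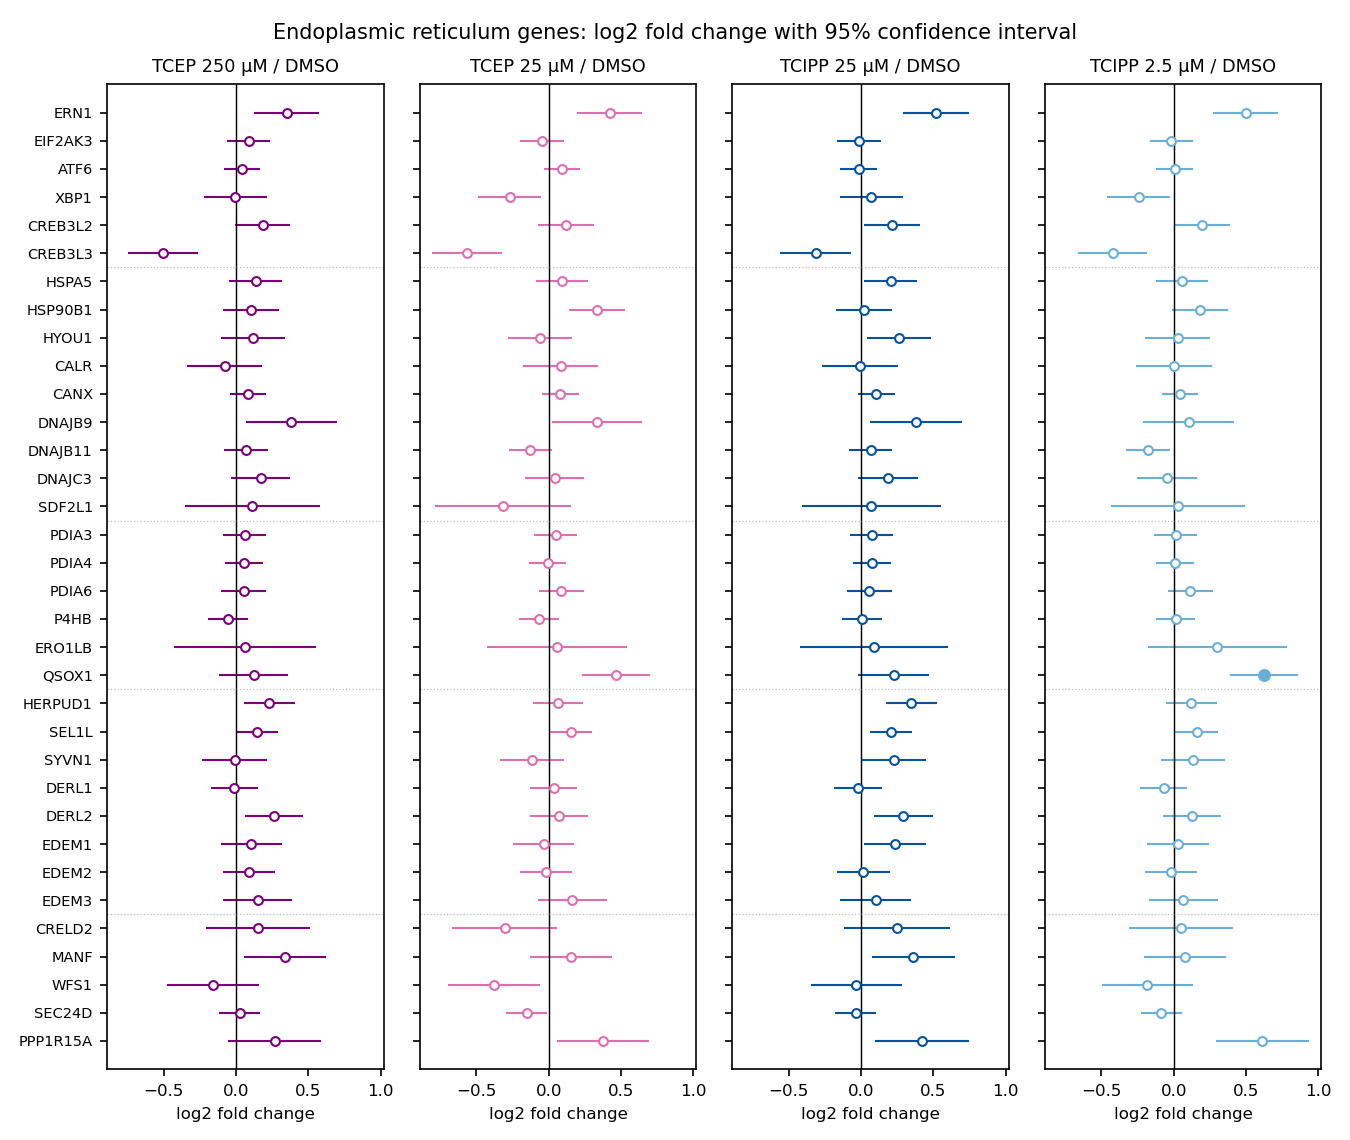
Log2 fold change of 34 genes against DMSO for each treatment, with 95% confidence intervals, grouped by role from sensors at the top to secreted, membrane and export proteins at the bottom; a filled point is a call at an adjusted p under 0.05. QSOX1 with TCIPP at 2.5 µM is the only filled point, at 0.62, while ERN1 lies right of 0 and CREB3L3 left of 0 in all 4 panels.

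Among the sensors and transcription factors, ERN1 lay higher and CREB3L3 lower than DMSO in every treated library, without passing edgeR's test, while EIF2AK3 and ATF6 overlapped DMSO. ERN1 had 32.9, 37.1 and 35.7 CPM with TCEP at 250 µM and 37.6, 36.1 and 35.7 CPM at 25 µM. ERN1 with TCIPP stood at 33.9, 45.01 and 39.7 CPM at 25 µM and 35.4, 36.9 and 42.2 CPM at 2.5 µM, against 25.5, 31.6 and 25.6 CPM with DMSO. ERN1 encodes IRE1, the kinase and nuclease that splices XBP1, and lies at chr17:62116502-62208179 (hg19, as for every gene position given beside these results). Every treated library was above the highest DMSO library. TCEP gave log2 fold changes of 0.35 (SE 0.11) at 250 µM and 0.42 (SE 0.11) at 25 µM, and TCIPP gave 0.52 (SE 0.11) at 25 µM and 0.50 (SE 0.11) at 2.5 µM. None passed in edgeR, with adjusted p-values of 0.80, 0.13, 0.14 and 0.057. With TCIPP at 2.5 µM limma-voom called 1 of the 6 sensors and transcription factors, against 0.828% of all genes. ERN1 had the smallest p of the 6 there in edgeR, and DESeq2 called it. DMSO replicate 2 was the nearest DMSO library, and without it ERN1 passed with TCIPP at 2.5 µM (log2 fold change 0.59, adjusted p = 0.014). Leaving out the control library nearest to the treated ones widens a difference in any case, so this pass adds no support.

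CREB3L3 encodes CREBH, a liver transcription factor that is held in the endoplasmic reticulum membrane and acts on lipid and acute phase genes (chr19:4153598-4173051). CREB3L3 had 11.5, 10.6 and 12.5 CPM with TCEP at 250 µM and 11.3, 10.5 and 11.3 CPM at 25 µM. CREB3L3 with TCIPP stood at 14.8, 11.8 and 12.8 CPM at 25 µM and 14.1, 10.8 and 12.03 CPM at 2.5 µM, against 16.2, 17.1 and 16.1 CPM with DMSO. Every treated library was below the lowest DMSO library. The fitted values on the log2 scale were -0.51 (SE 0.11) for TCEP at 250 µM, -0.57 (SE 0.11) for TCEP at 25 µM, -0.32 (SE 0.12) for TCIPP at 25 µM and -0.42 (SE 0.11) for TCIPP at 2.5 µM. The edgeR adjusted p-values were 0.30, 0.12, 0.65 and 0.11, so CREB3L3 did not pass either. Its close relative CREB3L2, which acts in secretory cells, went the other way in value, at 0.18, 0.12, 0.22 and 0.19, also without a call.

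XBP1, whose spliced form drives chaperone and degradation genes, had its lowest levels at the lower concentration of each compound (chr22:29190543-29196585). XBP1 had 312, 274 and 304 CPM with TCEP at 250 µM and 244, 211 and 274 CPM at 25 µM. XBP1 with TCIPP stood at 335, 262 and 331 CPM at 25 µM and 260.5, 212 and 271 CPM at 2.5 µM, against 287, 298 and 299.7 CPM with DMSO. The low-concentration libraries of both compounds lay below the DMSO range and the high-concentration libraries around it. The log2 fold change was -0.27 with TCEP at 25 µM (SE 0.10, adjusted p = 0.22, edgeR) and -0.24 with TCIPP at 2.5 µM (SE 0.10, adjusted p = 0.30). Gene counts do not separate spliced from unspliced XBP1. EIF2AK3 had 63.6, 56.7 and 60.7 CPM with TCEP at 250 µM and 57.2, 53.04 and 52.7 CPM at 25 µM. EIF2AK3 with TCIPP stood at 58.7, 54.2 and 54.2 CPM at 25 µM and 58.5, 52.8 and 55.3 CPM at 2.5 µM, against 55.4, 54.6 and 58.5 CPM with DMSO. EIF2AK3 encodes the eIF2alpha kinase PERK, and its treated ranges all overlapped that of DMSO. ATF6 had 82.5, 83.3 and 83.2 CPM with TCEP at 250 µM and 85.5, 86.96 and 81.96 CPM at 25 µM. ATF6 with TCIPP stood at 78.01, 80.7 and 78.5 CPM at 25 µM and 78.4, 79.4 and 81.9 CPM at 2.5 µM, against 76.9, 83.8 and 78.9 CPM with DMSO. ATF6, the sensor that is cut in the Golgi, overlapped the DMSO range in every group. The 95% intervals of ATF6 ran from -0.15 to 0.22 on the log2 scale over the 4 comparisons.

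**Figure D3:**
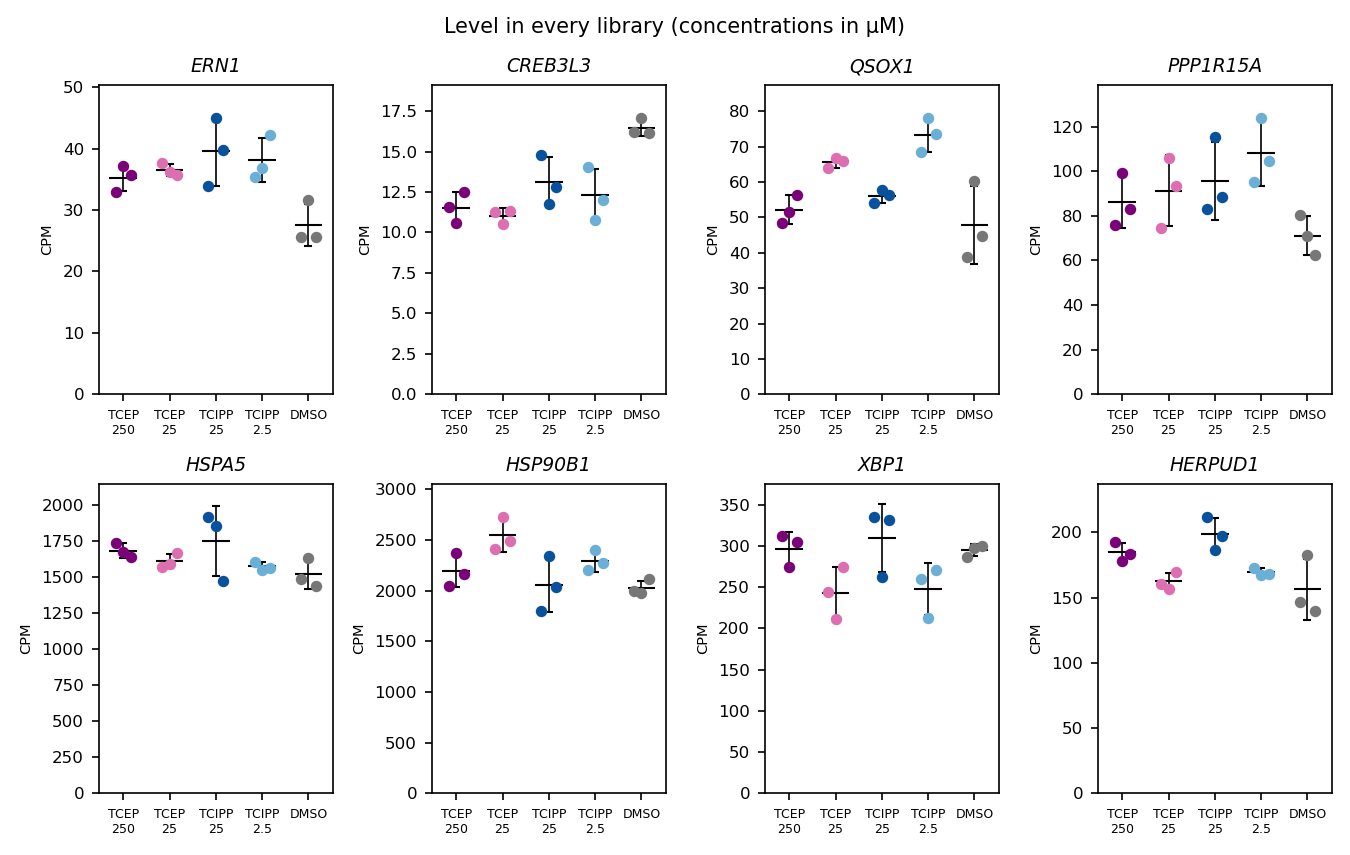
CPM in each library for 8 genes, with concentrations in µM under the axis; points are libraries and bars are mean ± SD (n = 3). ERN1 is above and CREB3L3 below the DMSO range in all 12 treated libraries, XBP1 is lower on average at the lower concentration of each compound, and QSOX1 and HERPUD1 show 1 DMSO library well above the other two.

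None of the abundant chaperones passed edgeR's test, and DESeq2 called HSP90B1 with TCEP at 25 µM (adjusted p = 0.021). HSPA5 had 1735, 1673 and 1635 CPM with TCEP at 250 µM and 1569.7, 1590.3 and 1661 CPM at 25 µM. HSPA5 with TCIPP stood at 1916, 1852 and 1471 CPM at 25 µM and 1605, 1549 and 1562 CPM at 2.5 µM, against 1484, 1628 and 1435 CPM with DMSO. HSPA5, the chaperone BiP that also holds the sensors inactive (chr9:127997132-128003609), had its highest values in 2 of the 3 libraries with TCIPP at 25 µM, while the third lay within the DMSO range. Its log2 fold change there was 0.20 (95% interval 0.020 to 0.39, edgeR adjusted p = 0.73), and 0.13 with TCEP at 250 µM (-0.048 to 0.32). HSP90B1 had 2048, 2368 and 2168 CPM with TCEP at 250 µM and 2409.6, 2729 and 2491 CPM at 25 µM. HSP90B1 with TCIPP stood at 1798, 2343 and 2035 CPM at 25 µM and 2199, 2403 and 2268 CPM at 2.5 µM, against 1992, 1971 and 2109 CPM with DMSO. Libraries with TCEP at 25 µM or TCIPP at 2.5 µM lay above the DMSO range, and those at the higher concentrations overlapped it. The log2 fold change of HSP90B1 (chr12:104323885-104347423) was 0.34 with TCEP at 25 µM (SE 0.091, adjusted p = 0.14, edgeR) and 0.18 with TCIPP at 2.5 µM (SE 0.091, adjusted p = 0.39). CALR had 853, 932 and 776 CPM with TCEP at 250 µM and 951, 1029.8 and 844 CPM at 25 µM. CALR with TCIPP stood at 915, 1024 and 732 CPM at 25 µM and 888, 986 and 798 CPM at 2.5 µM, against 984, 828 and 866 CPM with DMSO. CALR overlapped the DMSO range in every group, with the replicate 3 library the lowest in each treated group.

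The cochaperones of BiP gave no call by edgeR either, with larger values in DNAJB9. DNAJB9 had 38.7, 37.4 and 44.1 CPM with TCEP at 250 µM and 35.7, 38.5 and 41.4 CPM at 25 µM. DNAJB9 with TCIPP stood at 44.9, 35.9 and 38.8 CPM at 25 µM and 33.03, 25.97 and 37.9 CPM at 2.5 µM, against 23.5, 39.3 and 29.7 CPM with DMSO. DNAJB9 encodes ERdj4, which binds misfolded clients. DMSO replicates 1 and 3 lay below every treated library except replicate 2 of TCIPP at 2.5 µM, and DMSO replicate 2 lay among the treated values. The log2 fold changes ran from 0.10 with TCIPP at 2.5 µM to 0.38 with TCEP at 250 µM, with edgeR adjusted p-values of at least 0.29. DNAJB11 had 159, 152 and 147 CPM with TCEP at 250 µM and 134, 122 and 138 CPM at 25 µM. DNAJB11 with TCIPP stood at 161, 154 and 138 CPM at 25 µM and 133, 122 and 125 CPM at 2.5 µM, against 147, 147 and 138 CPM with DMSO. DNAJB11 encodes ERdj3, a BiP cochaperone that is also secreted. Its libraries at the lower concentration of each compound lay below the DMSO range, and those at the higher concentration overlapped it. DNAJC3, HYOU1 and SDF2L1, further helpers of BiP, ranged between -0.32 and 0.26 in log2 fold change. CANX, the membrane lectin calnexin, stayed within 0.043 to 0.11.

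Of the enzymes of disulfide bonds, QSOX1 rose with TCIPP at 2.5 µM. QSOX1 encodes a sulfhydryl oxidase of the secretory pathway and lies at chr1:180123969-180173165. QSOX1 had 48.4, 51.6 and 56.5 CPM with TCEP at 250 µM and 63.9, 66.9 and 66.1 CPM at 25 µM. QSOX1 with TCIPP stood at 53.99, 57.7 and 56.4 CPM at 25 µM and 68.6, 78.2 and 73.5 CPM at 2.5 µM, against 38.8, 60.3 and 44.9 CPM with DMSO. All TCIPP 2.5 µM and TCEP 25 µM libraries were above the highest DMSO library, while the libraries at the higher concentrations lay within the DMSO range. The intron share of gene reads was 7.816% to 8.67% with TCIPP at 2.5 µM and 8.681% to 9.103% with DMSO. The increase was 0.62 on the log2 scale with TCIPP at 2.5 µM (SE 0.11, adjusted p = 0.041, edgeR's quasi-likelihood test), or 1.54-fold. With TCEP at 25 µM it was 0.46 (SE 0.11, adjusted p = 0.12), which did not pass in edgeR. DESeq2 called 1 of the 6 disulfide bond enzymes there, against 1.15% of all genes. QSOX1 alone of the 6 had an unadjusted p under 0.05 there in edgeR. The call was lost when total gene reads were used (adjusted p = 0.060), when the compared groups were fitted alone (0.063) and when DMSO replicate 1 or 3, or else TCIPP 2.5 µM replicate 2 or 3, was left out (0.094 to 0.28). Without DMSO replicate 2, whose 60.3 CPM was the highest of the DMSO libraries, QSOX1 also passed with TCEP at 25 µM (log2 fold change 0.64, adjusted p = 0.010). Leaving out that library widens the difference in any case, so this pass adds no support.

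The classical protein disulfide isomerases lay close to 0. P4HB, PDIA3, PDIA4 and PDIA6 had log2 fold changes between -0.068 (P4HB, TCEP at 25 µM) and 0.12 (PDIA6, TCIPP at 2.5 µM) over the 4 treatments. For P4HB the 95% interval with TCIPP at 25 µM was -0.13 to 0.14, and for PDIA4 with TCEP at 25 µM it was -0.14 to 0.12. ERO1LB, the least abundant of this set, was poorly measured, with an interval of -0.42 to 0.60 with TCIPP at 25 µM. Unique reads made up 74.6% to 81.4% of the reads of PDIA6, ERO1LB, P4HB and PDIA3, so copies elsewhere in the genome may share some of them.

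In the degradation pathway, values were mostly positive with TCIPP at 25 µM, and none passed edgeR's test, while DESeq2 called HERPUD1 there (adjusted p = 0.037). The median over its 8 tested genes was 0.22 there, 0.12 with TCEP at 250 µM, 0.095 with TCIPP at 2.5 µM and 0.050 with TCEP at 25 µM. HERPUD1 had 193, 178 and 184 CPM with TCEP at 250 µM and 161, 157 and 169.8 CPM at 25 µM. HERPUD1 with TCIPP stood at 212, 187 and 197 CPM at 25 µM and 173, 167 and 168 CPM at 2.5 µM, against 147, 183 and 139 CPM with DMSO. HERPUD1, a membrane scaffold of the degradation complex (chr16:56965960-56977798), was above all DMSO libraries in each of the 3 libraries with TCIPP at 25 µM. DMSO replicate 2, at 183 CPM, lay among the treated values. The log2 fold change was 0.35 with TCIPP at 25 µM (SE 0.083, adjusted p = 0.24, edgeR), and 0.46 with an adjusted p of 0.042 when DMSO replicate 2 was left out. Since that library was the DMSO library nearest to the treated ones, leaving it out widens the difference in any case and adds no support. With TCEP at 250 µM the log2 fold change of HERPUD1 was 0.23 (SE 0.083, adjusted p = 0.87).

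DERL2 had 34.1, 29.3 and 32.9 CPM with TCEP at 250 µM and 27.3, 25.97 and 29.9 CPM at 25 µM. DERL2 with TCIPP stood at 32.9, 33.8 and 31.5 CPM at 25 µM and 28.1, 26.3 and 31.5 CPM at 2.5 µM, against 23.3, 29.4 and 26.96 CPM with DMSO. DERL2 is a channel-like protein of the same complex. Its libraries with TCIPP at 25 µM lay above the DMSO range, and the fitted difference was 0.29 on the log2 scale (SE 0.096, adjusted p = 0.57). SEL1L, the adaptor of the ubiquitin ligase SYVN1, was positive in all 4 comparisons, from 0.14 to 0.21, again without a call. SYVN1 itself ranged from -0.11 to 0.23. The EDEM lectins, which pick out glycoproteins for degradation, ranged from -0.036 (EDEM1, TCEP at 25 µM) to 0.23 (EDEM1, TCIPP at 25 µM). DERL1 stayed between -0.069 and 0.035, on reads that are mostly not unique.

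PPP1R15A encodes GADD34, the regulatory subunit that brings a phosphatase to eIF2alpha and so closes the PERK arm by feedback (chr19:49375649-49379314). PPP1R15A had 76.1, 98.95 and 83.2 CPM with TCEP at 250 µM and 74.4, 106 and 93.4 CPM at 25 µM. PPP1R15A with TCIPP stood at 82.8, 115 and 88.3 CPM at 25 µM and 95.3, 124 and 105 CPM at 2.5 µM, against 80.2, 70.7 and 62.4 CPM with DMSO. All libraries with TCIPP lay above the DMSO range, while with TCEP 1 library of each group lay within it. Log2 fold changes were 0.61 with TCIPP at 2.5 µM (SE 0.15, adjusted p = 0.084, edgeR), 0.42 with TCIPP at 25 µM, 0.37 with TCEP at 25 µM and 0.26 with TCEP at 250 µM. Of the 5 secreted, membrane, export and feedback genes, DESeq2 called 1 with TCIPP at 2.5 µM, against 1.81% of all genes. PPP1R15A alone of the 5 had an unadjusted p under 0.05 there in edgeR. In each treated group the replicate 2 library was the highest. MANF, a secreted protein that is induced by endoplasmic reticulum stress, had 0.34 with TCEP at 250 µM and 0.36 with TCIPP at 25 µM, and 0.15 and 0.079 at the lower concentrations, as log2 fold changes without a call. CRELD2, another secreted protein induced by such stress, ranged from -0.30 with TCEP at 25 µM to 0.25 with TCIPP at 25 µM. WFS1, a membrane protein of the endoplasmic reticulum, was negative in all 4, down to -0.38 with TCEP at 25 µM (SE 0.15, adjusted p = 0.24). SEC24D, a coat protein of export vesicles, ranged from -0.15 to 0.024.

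The next question was what the higher concentration of each compound added. Raising TCEP to 250 µM brought 0 of 34 genes past the threshold without the block, against 0% of all genes, and 0 of 34 with it, against 1.47%. At an unadjusted p under 0.05 there were 6 without the block, against 7.16% of all genes. DESeq2 and limma-voom called 0, against 0.111% and 0%. Raising TCIPP to 25 µM gave 0 calls without the block, against 0%, with 6 at an unadjusted p under 0.05, against 10.8%. The counts by DESeq2 and limma-voom were 0, against 0.573% and 0%. With the replicate block, 3 of 34 passed for TCIPP, against 3.85% of all genes. The groups did not overlap in 9 genes (26.5%) for TCEP, against 15.5% of all genes, and in 4 (11.8%) for TCIPP, against 12.8%. The mitochondrial share of exon reads was 6.698% to 7.232% with TCIPP at 25 µM and 5.681% to 6.367% at 2.5 µM, without overlap, and its part in these differences was not tested.

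The 3 genes for TCIPP were XBP1 and DNAJB11, which rose, and QSOX1, which fell. XBP1 was higher at 25 than at 2.5 µM in every same-numbered pair, with a blocked log2 fold change of 0.31 (SE 0.066, adjusted p = 0.014, edgeR). DNAJB11 gave 0.24 (SE 0.059, adjusted p = 0.030). QSOX1 fell by 0.39 (SE 0.088, adjusted p = 0.019). For TCEP the same genes gave blocked values of 0.27, 0.19 and -0.34, with edgeR adjusted p-values of 0.053, 0.13 and 0.064. None passed in this fit of all 15 libraries, DMSO included. With the block fitted on the 12 treated libraries only, an alternative chosen after seeing the data, more genes passed in both steps. Those counts are given in the part on processing. Across the group, CRELD2 had the largest value of the TCEP step, 0.46 (SE 0.17, adjusted p = 0.68 without the block). The steps of the 2 compounds were also tested against each other, although they span different concentrations. The difference passed in 0 of 34 genes, against 0% of all genes, with 0 at an unadjusted p under 0.05, against 1.66%, and 0 by DESeq2 and limma-voom, against 0% and 0%. The blocked count for TCIPP was 2 without TCIPP 2.5 µM replicate 1, 1 (QSOX1) without TCIPP 25 µM replicate 1, 1 (XBP1) without its replicate 2, 5 without its replicate 3, and 0 without TCIPP 2.5 µM replicate 2 or 3.

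TCIPP and TCEP were given at 1 shared concentration, 25 µM, which allows 1 matched comparison of the compounds. Without the replicate block 0 of 34 genes passed, against 0.0398% of all genes, with 11 at an unadjusted p under 0.05, against 18.1%. DESeq2 called 2, HSP90B1 and HERPUD1, against 2.63% of all genes, and limma-voom 0, against 0.0318%. With the block, 7 of 34 passed, against 8.75% of all genes. The groups did not overlap in 12 of 34 (35.3%), against 20.1%. The mitochondrial share of exon reads was 6.698% to 7.232% with TCIPP and 5.908% to 6.543% with TCEP, and the intron share of gene reads 8.604% to 9.555% with TCIPP and 8.055% to 8.587% with TCEP. Neither overlapped, and their part in the differences was not tested. Higher with TCIPP were CRELD2, XBP1, SYVN1, WFS1, HYOU1 and HERPUD1, and HSP90B1 was lower. Of these 7, CRELD2, XBP1, HYOU1, HERPUD1 and HSP90B1 hold an ERSE or ERSE-II in the sequences above. An exact element was present in 11 of the 31 genes with a window. SYVN1 and WFS1 matched ERSE when 1 mismatch was allowed, which 15 of the 31 did. The part of the element in these differences was not tested.

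HSP90B1 had 1798, 2343 and 2035 CPM with TCIPP and 2409.6, 2729 and 2491 CPM with TCEP at 25 µM, and was lower with TCIPP in all 3 pairs. Its blocked log2 fold change was -0.32 (SE 0.065, adjusted p = 0.0073, edgeR; 0.11 without the block). XBP1 had 335, 262 and 331 CPM with TCIPP and 244, 211 and 274 CPM with TCEP. The blocked value was 0.34 (SE 0.066, adjusted p = 0.0054; 0.12 without). XBP1 was higher in every pair although the group ranges overlapped, since replicate 2 was low with both compounds.

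CRELD2, a stress-induced secreted protein (chr22:50311815-50321188), had 18.1, 15.7 and 13.9 CPM with TCIPP and 11.4, 8.73 and 12.02 CPM with TCEP. It had the largest difference of the group, 0.53 with the block (SE 0.16, adjusted p = 0.044; 0.13 without). CRELD2 is a low-abundance gene, read at most 317 and at least 79.00 times per library. SYVN1, the ubiquitin ligase of degradation, had 71.7, 58.5 and 65.1 CPM with TCIPP and 52.7, 45.9 and 54.9 CPM with TCEP, a blocked 0.34 (adjusted p = 0.040). HERPUD1, its partner in the same complex, had 212, 187 and 197 CPM with TCIPP and 161, 157 and 169.8 CPM with TCEP, a blocked 0.28 (adjusted p = 0.032). In both, every TCIPP library was above every TCEP library. HYOU1, a nucleotide exchange factor of BiP, had 392, 328 and 283 CPM with TCIPP and 279.8, 241 and 279 CPM with TCEP, a blocked 0.31 (adjusted p = 0.019). WFS1 had 136, 94.9 and 92.5 CPM with TCIPP and 91.8, 78.5 and 83.9 CPM with TCEP, a blocked 0.33 (adjusted p = 0.024). For HYOU1 and WFS1 the TCIPP replicate 1 library stood above the other two, and the replicate 3 pair of HYOU1 was nearly level.

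The matched count rested on particular libraries. It was 1 (XBP1) without TCIPP 25 µM replicate 1, 4 without its replicate 2, 1 (HSP90B1) without TCEP 25 µM replicate 1 and 2 (HSP90B1 and XBP1) without its replicate 2, and 7 or 8 without replicate 3 of TCIPP or TCEP. For the other 27 genes the blocked test found no difference between the compounds at 25 µM, which does not show that they act alike. The 95% intervals of the difference without the block were -0.071 to 0.29 for HSPA5, -0.35 to 0.17 for CALR, -0.10 to 0.15 for CANX, -0.067 to 0.21 for P4HB and -0.13 to 0.32 for ERN1 on the log2 scale. QSOX1 was lower with TCIPP, at 53.99, 57.7 and 56.4 against 63.9, 66.9 and 66.1 CPM, without overlap but also without a call (blocked adjusted p = 0.10).

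**Figure D4:**
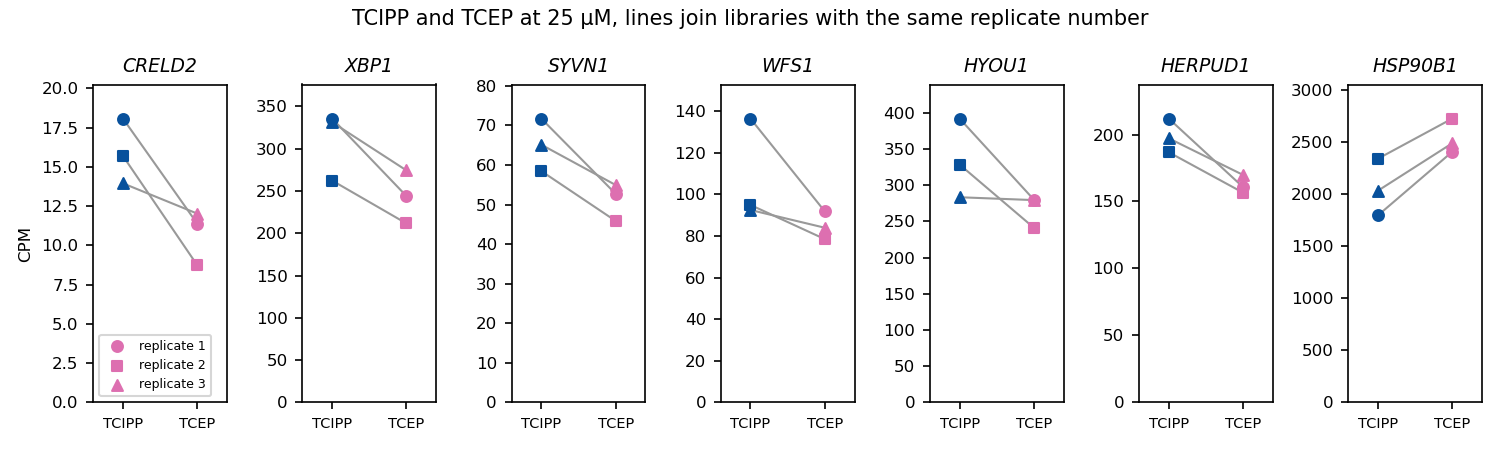
CPM at 25 µM of TCIPP (left in each panel) and TCEP (right) for the 7 genes called with the replicate block, with lines joining libraries of the same replicate number. Lines slope down to TCEP in all 3 pairs of the first 6 genes and up in HSP90B1, where the blocked log2 fold change is -0.32.

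Beyond the 35 genes, 6 further lists of the same pathway held 171 genes, of which 164 were tested, and 0 of the 164 were called without the block in any of the 7 comparisons by edgeR or limma-voom, and 0 to 7 by DESeq2, against 0.111% to 2.63% of all genes. At an unadjusted p under 0.05 there were 11, 20, 15 and 20 against DMSO in the order of TCEP 250 and 25 µM, then TCIPP 25 and 2.5 µM. Over all genes the shares were 5.2%, 15.2%, 6.36% and 13.9%, and over these genes 6.71%, 12.2%, 9.15% and 12.2%. The list of the eIF2alpha and ATF4 arm had the highest medians, 0.20 with TCEP at 250 µM and 0.15 with TCIPP at 25 µM over 17 genes, against -0.0058 and 0.0097 at the lower concentrations. Of the 17, 14 were above 0 with TCEP at 250 µM and 13 with TCIPP at 25 µM. The medians of the other 5 lists lay between -0.081 and 0.054 over the same comparisons.

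ATF4, the transcription factor whose translation PERK raises, had 661, 642 and 584 CPM with TCEP at 250 µM and 549, 529 and 505 CPM at 25 µM. ATF4 with TCIPP stood at 635, 625 and 544 CPM at 25 µM and 565, 504 and 478 CPM at 2.5 µM, against 556, 545 and 520.5 CPM with DMSO. With the replicate block its concentration step passed for TCEP (0.23, SE 0.049, adjusted p = 0.029, edgeR) and for TCIPP (0.21, SE 0.050, adjusted p = 0.024). TRIB3, a pseudokinase induced by ATF4, averaged 199 ± 9.38, 155 ± 11.9, 211 ± 13.7 and 171 ± 6.88 CPM with TCEP at 250 and 25 µM and TCIPP at 25 and 2.5 µM, against 157 ± 19.1 CPM with DMSO (SD, n = 3). Its blocked step was 0.33 for TCEP (adjusted p = 0.031) and 0.30 for TCIPP (adjusted p = 0.031). Against DMSO, DESeq2 called TRIB3 with TCEP at 250 µM and with TCIPP at 25 µM, and edgeR did not. EIF2A, a translation initiation factor of the same list, fell in the TCEP step by 0.28 (adjusted p = 0.029), and NUPR1, a stress-induced transcription regulator, rose in the TCIPP step by 0.39 (adjusted p = 0.038). In all, 2 of the 164 rose and 2 fell in the blocked TCEP step, against 1.47% of all genes called, and 4 rose and 3 fell in the blocked TCIPP step, against 3.85%. CEBPG, a partner of ATF4 at its target sites, was positive in all 4 comparisons with DMSO, from 0.21 to 0.29, with edgeR adjusted p-values of at least 0.169. DDIT3, the stress factor CHOP, averaged 14.5 ± 2.35, 12.03 ± 1.27, 16.3 ± 0.224 and 11.9 ± 1.74 CPM in the same order, against 11.9 ± 2.11 CPM with DMSO. Only 59.6% of DDIT3 reads were unique, and its log2 fold change with TCIPP at 25 µM was 0.43 (adjusted p = 0.60).

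ERO1L, the main oxidase that recharges protein disulfide isomerases, was highest at the lower concentration of each compound. ERO1L had 282, 426 and 343 CPM with TCEP at 250 µM and 388, 555 and 475 CPM at 25 µM. ERO1L with TCIPP stood at 274, 400.1 and 368 CPM at 25 µM and 353, 516 and 477 CPM at 2.5 µM, against 292, 338 and 309.6 CPM with DMSO. Replicate 2 was the highest library and replicate 1 the lowest in every treated group. With the replicate block the step to the higher concentration fell by 0.46 for TCEP (SE 0.069, adjusted p = 0.0033, edgeR) and by 0.38 for TCIPP (SE 0.070, adjusted p = 0.0055). Without the block neither passed (adjusted p = 0.66 and 0.43).

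The other lists gave no call against DMSO by edgeR or limma-voom, and DESeq2 called GANAB, a glucosidase that trims glycans, with TCIPP at 2.5 µM. The genes of these lists with the smallest p were BBC3 and MBTPS2 among the regulators, PDIA5 among the folding enzymes, UBE2J2 and NGLY1 among the degradation factors, DAD1 and SSR3 in translocation and glycosylation, and ERGIC1 and PREB in export. Their log2 fold changes against DMSO ran from -0.31 (UBE2J2, TCEP at 25 µM) to 0.24 (ERGIC1, TCIPP at 2.5 µM). With the block, 10 of the 164 were higher and 9 lower with TCIPP than with TCEP at 25 µM, against the same 8.75% of all genes. The smallest adjusted p-values were those of ERO1L (-0.46, adjusted p = 0.0012, edgeR), EIF2A (-0.38, 0.0017) and TRIB3 (0.44, 0.0023). The eIF2alpha and ATF4 arm held 4 of the higher genes and 1 of the lower among its 17 tested. SESN2 (0.54), NUPR1 (0.40) and ATF4 (0.18) were the other 3 of that arm, all higher with TCIPP. From the remaining lists, the ubiquitin-conjugating enzymes UBE2J2 and UBE2G2 were higher with TCIPP (0.39 and 0.23), and the translocation factors SRP9 and SEC62 lower (-0.26 and -0.32).

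**Figure D5:**
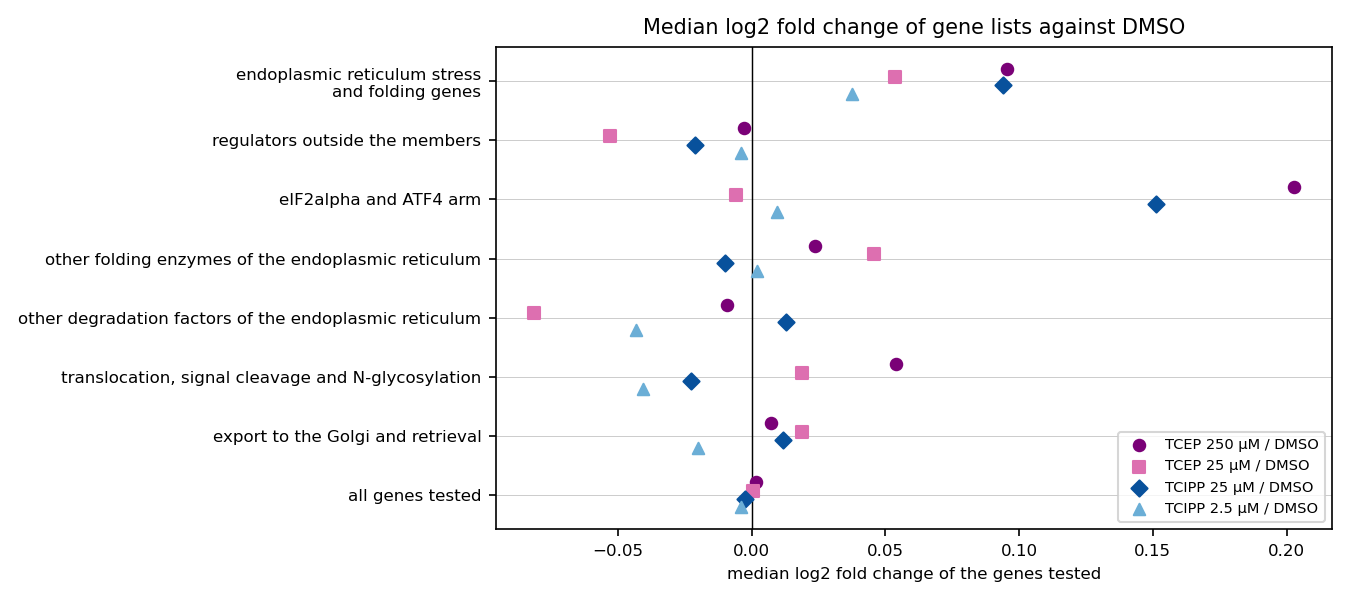
Median log2 fold change against DMSO of the 34 tested genes, of 6 further pathway lists and of all genes tested, for each treatment. The eIF2alpha and ATF4 arm lies farthest right at the higher concentrations, at 0.20 for TCEP 250 µM. All genes tested lie at 0 within 0.004, as the scaling of the libraries sets them near 0.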

How the data were processed

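Libraries were poly-A, stranded and paired-end. Per the design text, the authors used CLC Genomics Workbench to map and count reads, on hg19 (GRCh37), per the submitters' processing notes. The sources used here do not say whether counts are stranded. The deposited tables hold whole-number read counts per gene, per the file headers, and RPKM values, which per the file headers scale reads to exon length and mapped reads. The design text also names quantile normalization, but library totals differ, and RPKM recomputed from the counts equalled the deposited value in 100% of genes (relative tolerance 0.0001). Gene starts lie 1 base below the annotation in 86.4% of genes with the same end and were raised by 1.

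Total exon reads went into the quasi-likelihood test of edgeR 4.0.16 in R 4.3.3, with TMM scaling, edgeR's filter and all 15 libraries in 1 fit. Adjusted p-values are Benjamini-Hochberg over 12567 genes, and calls are at 0.05. SE is the absolute log2 fold change over the square root of F, and intervals are 95%. CPM are exon reads per library total, as mean ± SD (n = 3). The test was checked on simulated data for TCIPP 25 µM against DMSO over 12480 genes. It found 6% of increases of 1.25-fold, 68% of 1.5-fold and 90% of 2-fold, and 75% of falls to 0.5-fold, with 7 false calls. The simulation changed 50 genes at each fold and held no replicate effect, whereas the real comparison gave 1 call. Adjusted p-values depend on how many genes change, so these shares may be too high for the real data. Replicates differed by more than sampling noise (chi-square per degree of freedom 3.7 to 11.2). The replicate numbers pair the treated libraries by correlation of deviations (all above 0.1), not DMSO. Alternatives were other scalings, no filter, unique exon or total gene reads, DESeq2 1.42.0, limma-voom (limma 3.58.1), the compared groups alone, the replicate block and leaving out each library.

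Genes shown in every library were those called, the 3 with the smallest p per comparison and a fixed set; the genes called only with the replicate block, and DNAJB9, were shown because of their values. The 35 genes, the lists and the rules were chosen with earlier results of these data known. Of 4 endothelial markers, 1 was not analysed here. Protein sequences were not used.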

Additional observations from a re-analysis of the deposited data

Results flagged for a closer look

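The 2 compounds differed at 25 µM in 7 genes when the replicate block was in the fit, by a test of the difference itself in edgeR, against 8.75% of all genes. Blocked log2 fold changes of TCIPP over TCEP were 0.53 for CRELD2, 0.34 for XBP1, 0.34 for SYVN1, 0.33 for WFS1, 0.31 for HYOU1 and 0.28 for HERPUD1. For HSP90B1 the value was -0.32. Each had the same sign in all 3 same-numbered pairs. None of the 7 passed in edgeR without the block, and with it the count was 1 when replicate 1 of TCIPP or of TCEP was left out.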

How the results depend on the processing

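None of the named genes changed sign where it was called, and 367 recomputed log2 fold changes kept their direction and their side of the threshold. Another 47 passed only under an alternative, and 6 lost the call, all of them QSOX1 with TCIPP at 2.5 µM. Counts of the 34 genes moved as follows, and the causes were not tested. With TCEP at 25 µM against DMSO the count of 0 became 6 with no filter, 3 with DESeq2, 1 with the compared groups alone and 7 with the replicate block, and 0 to 1 when each library was left out. With TCIPP at 25 µM the count of 0 became 3, 2 and 1 with no filter, DESeq2 and the replicate block (0 to 1 without single libraries). With TCIPP at 2.5 µM the count of 1 became 3 with no filter, unique exon reads or DESeq2, 2 with limma-voom, 5 with the replicate block, and 0 with total gene reads or the compared groups alone (0 to 2). The TCIPP step of 0 became 2 with no filter and 3 with the block. The matched comparison of 0 became 7 with no filter, 2 with DESeq2, 7 with the block and 0 to 3 without single libraries. With TCEP at 250 µM, against DMSO or 25 µM, and for the difference of the steps, it stayed 0 under each alternative with 15 libraries or 1 left out. Over all genes, counts ran to 50, 1037, 80 and 941 against DMSO (edgeR 0, 0, 1 and 12), to 185 and 484 for the steps (0 each), to 1100 for the matched comparison (5) and to 8 for the difference of the steps (0).

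The replicate block was chosen beside the comparisons of treated groups because all same-numbered pairs there correlated above 0.1, whereas the pairs with DMSO gave r of 0.016 to 0.158. Against DMSO the block called CREB3L3, ERN1, HSP90B1, PPP1R15A, QSOX1, WFS1 and XBP1 with TCEP at 25 µM, ERN1 with TCIPP at 25 µM, and CREB3L3, ERN1, PPP1R15A, QSOX1 and XBP1 with TCIPP at 2.5 µM. Fitted on the 12 treated libraries only, an alternative chosen after seeing the data, the blocked counts were 4 for the TCEP step (0 with all 15), 7 for the TCIPP step (3) and 10 for the matched comparison (7). Leaving out single libraries gave blocked counts of 0 to 5 for the TCIPP step and 1 to 8 for the matched comparison.

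The median log2 fold change with TCEP at 250 µM against DMSO was 0.1107 with library totals, 0.0896 with total gene reads and 0.0705 to 0.1192 without single libraries (0.0956 as reported). For the TCEP step it was 0.0799, 0.0503 and 0.0335 to 0.0860 (0.0591). Scaling moved the median of all genes by at most 0.021. The median level of the 35 genes was 16.6 on the RPKM scale with unique exon reads and 13.1 as deposited. With at most 1 mismatch, ERSE was found in 15 promoters in place of 8. A search of protein sequences was not run. Of the genes with reads, ERO1LB, SDF2L1, CREB3L3 and CRELD2 had the fewest in their lowest library (28, 51, 63 and 79).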
